A study of Parasteatoda tepidariorum with 75 samples.

Results

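The libraries described here compare untreated embryos of the house spider Parasteatoda tepidariorum at late stage 5 with their untreated siblings at early stage 6. They are 10 of the 75 samples of the series: every untreated library, laid before any injection of dsRNA, of the females that gave both stages. These females belonged to the gfp group (females 4 and 5) and the Pt-msx1 group (females 1, 2 and 3), so each stage has 5 libraries and each female gave 1 library per stage. All are whole embryos of the Osaka isolate. The egg sac of gfp female 5 had day -2 relative to the first injection and those of the other 4 females day -3. Each library is poly(A) RNA of a pool of embryos from a single egg sac, so the pools average over sibling embryos and the female is the replicate. The series also holds embryos of the same females after parental RNA interference (pRNAi), in which dsRNA is injected into the mother: gfp dsRNA, a control without a target in the spider, or dsRNA of the homeobox gene Pt-msx1. These, and 16 untreated stage 3 and stage 5 libraries of 8 other females, are used only for comparison.

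At late stage 5 the spider embryo is a germ disc, a nearly round cell sheet in which gene expression is arranged in concentric zones. Its centre becomes the posterior end of the body and its rim the anterior end. During the transition to stage 6 the radial symmetry of the disc is lost and the sheet is remodelled into a germ band with an axis from head to tail. Segmental stripes of gene expression arise along this axis, by splitting of stripes in the head and by repeated waves of expression at the posterior end. Hedgehog, a secreted signal received by Patched and relayed by Smoothened to the transcription factor Ci, is made at the rim of the disc and polarises it.

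The libraries held 8725236 to 11621286 counted reads, and 15524 to 16100 models had at least 1 count. The 10 most abundant models took 5.00% to 6.82% of the counts. Libraries of a female resembled each other more than libraries of a stage did. The first principal component, 29.4% of the variance, set both libraries of Pt-msx1 female 1 apart from the other 8, and the stage 5 library of that female had the lowest normalization factor, 0.844 against 1.01 to 1.06 for the other stage 5 libraries. Results are therefore also given without that female. In the pRNAi libraries used for comparison, the stage 6 columns of gfp female 5 and Pt-msx1 female 1 held identical counts in all 27990 gene models. They correlated more highly with other libraries of gfp female 5 (up to r = 0.990 across genes, log2 scale) than with those of Pt-msx1 female 1 (up to r = 0.958). Pt-msx1 female 1 was for that reason left out of its pRNAi comparison wherever values are quoted.

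Few gene models passed the test between the stages. Of 12689 gene models with at least 1 CPM (reads scaled to the library size) in at least 1 library, 286 (2.25%) passed the test, with 184 (1.45%) higher and 102 (0.804%) lower at stage 6 (edgeR quasi-likelihood test with the female as a block, Benjamini-Hochberg adjusted p under 0.01). An unadjusted p under 0.05 was reached by 2526 models in the same test, so the called models need not be all that changed. The change was at least 2-fold in 92 of the higher and 52 of the lower models. Among the called models, 183 of 184 and 101 of 102 moved in the called direction in 5 of 5 females. The median log2 change over all models tested was -0.014, and called changes ran from -2.67 to 4.19. In 85 called models the 5 libraries of one stage did not overlap those of the other, which was so for 240 models in all (1.89%). In pools of whole embryos, fewer cells of a type and less RNA per cell cannot be told apart.

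Rises outnumbered falls most clearly at low starting levels. Among the 1159 models with a mean under 1 CPM at stage 5, 21 were called higher and 0 lower. Between 1 and 10 CPM, 71 rose and 26 fell out of 3643 models. From 10 to 100 CPM, 74 rose and 62 fell out of 5870, and at 100 CPM or more 18 rose and 14 fell out of 2017. A model under 1 CPM has little room for a detectable fall, and 9 of the higher models passed the low-count filter only through stage 6. Among these are aug3.g17796, aug3.g22155, aug3.g12478, aug3.g3110, aug3.g14050, aug3.g15603 and aug3.g1790, which are described below. The filter itself favoured a rise in them, so any lack of overlap between their stages was partly set by the filter.

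The calls were sensitive to which females entered the fit. Leaving out 1 female at a time gave between 102 models (without gfp female 4) and 580 (without Pt-msx1 female 1). The fits without gfp 5, Pt-msx1 2 and Pt-msx1 3 called 170, 142 and 110 models. Of the 286 models, 282 were called again without Pt-msx1 1. All 286 kept their direction in each of these 5 fits, and 87 (62 higher, 25 lower) were called in every one of them. Below, a call that "held in all 5 fits" is one of these 87. For the others the females whose omission ended the call are named with the highest adjusted p.

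Of 6 genes listed for the posterior oscillation, whose waves of expression accompany segment formation, 3 were higher at stage 6 (1.45% of all models were higher). Pt-hh and Pt-msx1 also oscillate there and are described with the Hedgehog and germ disc genes: Pt-hh was lower in 5 of 5 females without passing the test, and Pt-msx1 was higher. The study took Pt-asl-H, Pt-prd2, Pt-krü-1 and Pt-hairy-D from genes changed by Pt-msx1 pRNAi at stage 6. Its controls included untreated stage 6 libraries that are also used here, so the choice was not independent and the count carries no test. Pt-asl-H encodes a basic helix-loop-helix factor of the Achaete-Scute family (scaffold 613 of the assembly Ptep_1.0, 168625 to 181484, minus strand). It measured 2.69, 2.64, 1.02, 2.61 and 2.38 CPM at stage 5 and 14.5, 10.4, 10.1, 11.9 and 10.5 CPM at stage 6, in the order gfp 4, gfp 5, Pt-msx1 1, Pt-msx1 2 and Pt-msx1 3 that is kept throughout. Every stage 6 library lay above every stage 5 library. The log2 change was 2.34 ± 0.18 (SE, n = 5 females, edgeR adjusted p = 5.38e-05).

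Pt-prd2, a paired-box gene described as gooseberry in the annotation, measured 114, 102, 87.5, 125 and 62.4 CPM at stage 5 and 208, 196, 212, 291 and 192 CPM at stage 6. The stages again did not overlap, although this gene was already well expressed in the germ disc, and the log2 change was 1.18 ± 0.11 (adjusted p = 0.000118). Pt-krü-1, a zinc finger gene, measured 1.65, 1.37, 0.918, 1.26 and 0.432 CPM at stage 5 and 7.28, 3.39, 4.17, 7.24 and 3.58 CPM at stage 6. All 5 females rose and the groups did not overlap (2.16 ± 0.24, adjusted p = 0.000242). These 3 calls held in all 5 fits. Pt-hairy-D, a Hes-type repressor, moved from 26.1 to 56.3 CPM at stage 5 (lowest and highest of 5) to 44 to 60.3 CPM at stage 6, up in 5 of 5 females with overlap, and did not pass the test (0.45 ± 0.11, adjusted p = 0.0294).

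The other 2 listed genes did not pass the test either. Pt-Delta, which encodes a ligand of Notch, measured 296, 319, 264, 241 and 246 CPM at stage 5 and 212, 248, 266, 176 and 220 CPM at stage 6 (-0.29 ± 0.10, adjusted p = 0.126). The homeobox gene Pt-noto1 had means of 100.2 ± 7.32 (SD) and 89.7 ± 7.82 CPM (-0.16 ± 0.09, adjusted p = 0.350). Of these 6 genes 0 were called lower, and the median log2 change was 0.815. Per length of transcript, in the authors' RPKM values (reads scaled by transcript length and library size), Pt-prd2 had the highest stage 6 mean of the group at 80.2, Pt-noto1 and Pt-Delta followed at 42.6 and 40.5, Pt-hairy-D had 15.1, and Pt-asl-H and Pt-krü-1 had 5.98 and 2.58.

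Of 6 genes that mark stripes of the germ band, 4 were higher and 0 lower (median log2 change 1.69), mostly from low levels. Over all models 1.45% were higher. The study took Pt-Scr-A, Pt-pax6-A, Pt-fd102C and Pt-sox2-A from genes changed by Pt-msx1 pRNAi at stage 6. Its controls included untreated stage 6 libraries that are also used here, so the choice was not independent and the count carries no test. Pt-Scr-A is a Hox gene, one of the factors that give segments their identity along the body axis (Scr in Drosophila specifies labial and first thoracic identity). It measured 1.39, 1.00, 0.204, 1.43 and 1.08 CPM at stage 5 and 10.1, 6.78, 5.21, 9.86 and 3.24 CPM at stage 6, without overlap (2.78 ± 0.27, adjusted p = 0.000118). Pt-pax6-A encodes a Pax-6 factor, a regulator of head and eye development. It was at 0.347, 0, 0.510, 1.09 and 0 CPM at stage 5 and at 2.69, 1.22, 6.69, 9.77 and 2.20 CPM at stage 6. The groups did not overlap, and females Pt-msx1 1 and 2 reached the highest levels (3.52 ± 0.34, adjusted p = 0.000124). Pt-fd102C, a forkhead gene, measured 1.04, 0.0910, 0.204, 2.02 and 0.432 CPM and then 5.81, 2.61, 5.39, 20.9 and 3.24 CPM. It too rose without overlap, and in Pt-msx1 female 2 it reached more than 3 times the level of any other female (3.30 ± 0.27, adjusted p = 5.73e-05). All 3 calls held in all 5 fits.

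**Figure D1:**
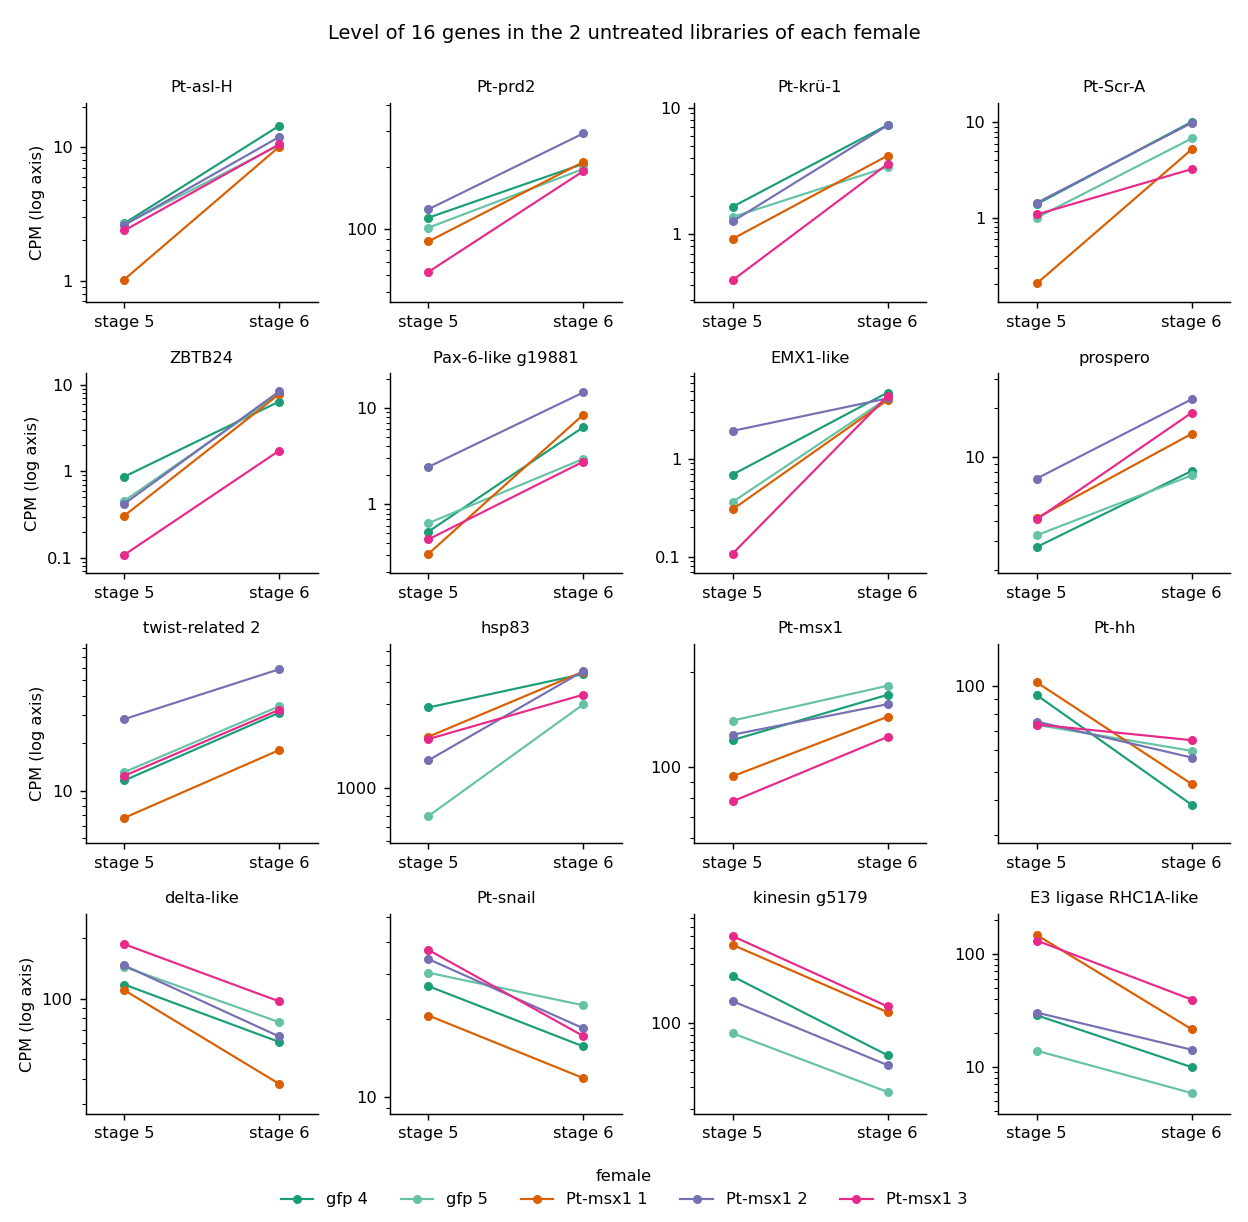
Levels of 16 genes (CPM, log axis) at stage 5 and stage 6, with 1 line per female joining the libraries of its egg sac. The lines of Pt-asl-H, Pt-prd2, Pt-krü-1 and Pt-Scr-A rise in all 5 females with every stage 6 value above every stage 5 value, whereas in the kinesin model aug3.g5179 the females differ more from each other than the stages do and each line falls.

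The Hox genes as a list gave 3 higher and 0 lower of 10 models tested (30%, against 2.25% of all models), and 1 to 4 calls when 1 female was left out. A Hox-B4a-like model, aug3.g1787 on scaffold 344, measured 71.2, 62.8, 41.9, 87.1 and 47.7 CPM at stage 5 and 105, 89.7, 92.7, 149 and 109 CPM at stage 6, without overlap. Its log2 change was 0.83 ± 0.12 (adjusted p = 0.00156), and the call was lost without Pt-msx1 3 (adjusted p = 0.0122). The third, a Hox-A9b model, rose from a mean of 1.51 ± 0.45 to 3.19 ± 0.75 CPM (SD, n = 5; 1.09 ± 0.21, adjusted p = 0.00987), and was called only in the fit without Pt-msx1 1 (adjusted p up to 0.046 without any of the other 4 females). Pt-lab-A, the labial homologue, was lower in 5 of 5 females, with 155 ± 31.7 CPM against 102 ± 22.5 CPM, and just missed the threshold (-0.61 ± 0.12, adjusted p = 0.0102). The engrailed gene aug3.g14050, whose Drosophila homologue marks posterior compartments of segments, rose without overlap from 0.306 to 0.757 CPM to 1.27 to 2.43 CPM (1.86 ± 0.32, adjusted p = 0.00518). This call, of a model that passed the low-count filter only through stage 6, was lost without gfp 4, gfp 5 or Pt-msx1 2 (adjusted p up to 0.035).

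Homeobox genes were the list with the most called regulators: 14 of 79 models were higher and 2 lower (20.3% called, against 2.25% of all models), and between 6 and 17 were called when 1 female was left out. The list as a whole did not rise: 40 models were positive and 39 negative, with a median log2 change of 0.010. Its summed level was lower at stage 6 in 5 of 5 females (means of 2533 and 2385 CPM). Sox factors, which carry an HMG box, had 3 of 8 higher and 0 lower (2 to 4 called without 1 female). Forkhead factors had 2 of 11 higher and 0 lower, although 8 of the 11 were negative and the median log2 change was -0.079. Basic helix-loop-helix factors had 2 of 11 higher and 1 lower. Neural regulators and neuronal genes had 7 of 61 higher and 1 lower (3 to 8 called without 1 female). Of these 61 models 36 were negative, and the median log2 change was -0.078. Segmentation gene families, a list by description that may hold genes named above, had 2 of 21 higher. T-box factors had 1 of 6 and nuclear receptors 1 of 14 higher, and none of 5 GATA models was called. The lists share members, so these counts are not independent of each other.

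Several Pax-6 models moved together. These and the next 3 genes were singled out after their values were seen. Of 6 models described as Pax-6, 5 were tested and 4 were called higher (1.45% of all models were higher). The model aug3.g19881 measured 0.520, 0.637, 0.306, 2.44 and 0.432 CPM at stage 5 and 6.33, 2.96, 8.51, 14.5 and 2.77 CPM at stage 6, with no overlap (3.03 ± 0.29, adjusted p = 0.000117, held in all 5 fits). The model aug3.g19451 rose by 2.68 ± 0.39 (adjusted p = 0.00192), a call lost without gfp 4 (adjusted p = 0.0121). The model aug3.g22155 had 6 counts over the 5 stage 5 libraries and 54 over the 5 stage 6 libraries, a ratio of 9.09 with a 95% counting interval of 3.91 to 25.8 that leaves out variation between females. It was called in none of the fits without 1 female (adjusted p 0.0104 to 0.0411). The fifth model, aug3.g25686, had a log2 change of -0.85 (adjusted p = 0.057). Some of these models may share reads or be fragments of a gene, so they are not separate evidence.

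An OTX2 homologue, aug3.g25936, measured 1.39, 0.546, 2.45, 2.19 and 1.08 CPM at stage 5 and 5.12, 3.13, 6.25, 9.50 and 5.55 CPM at stage 6, without overlap (1.96 ± 0.21, adjusted p = 0.000194, held in all 5 fits). In contrast, Pt-otd, the OTX-family gene of the germ disc rim and head stripe, had 216 ± 83.7 CPM at stage 5 and 192 ± 30.4 CPM at stage 6 (-0.11 ± 0.18, adjusted p = 0.788). The homeobox gene prospero, which in Drosophila acts in differentiating neural cells, went from 2.77, 3.28, 4.18, 7.32 and 4.11 CPM to 8.15, 7.65, 13.8, 22.5 and 18.6 CPM. No stage 6 library fell below a stage 5 library (1.67 ± 0.15, adjusted p = 0.000108), and the call held in all 5 fits. A slouch-like homeobox model, aug3.g12478, showed the largest fitted change of all, but on 2 counts at stage 5 and 50 at stage 6 over the 5 libraries each, a ratio of 25.2 with a 95% counting interval of 6.63 to 214 that leaves out variation between females. That call was lost without gfp 4, Pt-msx1 2 or Pt-msx1 3 (adjusted p up to 0.0373).

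The Sox genes included Pt-sox2-A, a member of the SoxB group that marks neural ectoderm in many animals. Its levels were 29, 29.9, 45.1, 41.5 and 18.6 CPM at stage 5 and 47.3, 55.2, 52.3, 56.4 and 33.2 CPM at stage 6, with overlap (0.61 ± 0.11, adjusted p = 0.0083). The call stood only in the fit without Pt-msx1 1 (adjusted p up to 0.0552 in the other 4). Sox-21-B-like (1.28 ± 0.16, adjusted p = 0.000641) and Sox-13 (0.87 ± 0.10, adjusted p = 0.000428) rose in 5 of 5 females and held in all 5 fits. Sox-21-B-like went from a mean of 9.19 ± 6.00 to 20.7 ± 7.48 CPM and Sox-13 from 34.4 ± 9.91 to 61.8 ± 11.3 CPM (SD, n = 5). A T-box gene, TBX3-like, rose without overlap from 1.79 ± 0.65 to 4.61 ± 1.15 CPM (1.37 ± 0.20, adjusted p = 0.00223), with the call lost without gfp 4, Pt-msx1 2 or Pt-msx1 3 (adjusted p up to 0.0159).

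The smallest adjusted p among the higher models belonged to a zinc finger and BTB domain gene and to the uncharacterized model aug3.g15599, on the scaffold of Pt-Scr-A. The model aug3.g17796, described as ZBTB24, measured 0.867, 0.455, 0.306, 0.421 and 0.108 CPM at stage 5 and 6.42, 7.91, 7.82, 8.41 and 1.73 CPM at stage 6. Even the lowest stage 6 library, that of Pt-msx1 3, was above all stage 5 libraries (3.85 ± 0.27, adjusted p = 4.88e-05). All stage 5 values were under 1 CPM, so aug3.g17796 passed the low-count filter only through stage 6. A twist-related protein 2-like gene, of the helix-loop-helix family whose member Twist acts in insect mesoderm, rose from 11.6, 13.1, 6.73, 28.4 and 12.4 CPM to 31.1, 34.2, 18.1, 58.6 and 32.5 CPM. Its stages overlapped because Pt-msx1 2 was high at both, yet the change within females was even (1.32 ± 0.11, adjusted p = 5.73e-05). A palmitoleoyl-protein carboxylesterase described as notum, an enzyme that removes the lipid of Wnt proteins, rose without overlap from 3.73 ± 1.62 to 15.6 ± 6.63 CPM (2.06 ± 0.17, adjusted p = 5.73e-05). Each of these calls held in all 5 fits.

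Some strongly raised models have no assigned role. The uncharacterized model aug3.g3860 was the most abundant of them, with 73.1, 98.2, 204, 240 and 158 CPM at stage 5 and 247, 220, 566, 775 and 368 CPM at stage 6. The stages overlapped between females, but every female rose (1.46 ± 0.11, adjusted p = 5.16e-05). A sericin 1-like model, aug3.g16493, named after a silk protein of moths, went from 4.28 ± 2.21 to 24.8 ± 7.32 CPM (2.58 ± 0.21, adjusted p = 5.73e-05). The uncharacterized models aug3.g3755, aug3.g1141 and aug3.g9240 rose by 2.14 ± 0.18, 1.70 ± 0.14 and 1.62 ± 0.15. All of these calls held in all 5 fits. Of all called models, 32 of the higher and 41 of the lower carry the description uncharacterized, and 8 and 12 more have no description.

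Of the 12 Hedgehog pathway models tested 1 was higher and 0 lower (8.33%, against 2.25% of all models). Pt-hh, the ligand, measured 93.2, 73.3, 103, 75.2 and 73.5 CPM at stage 5 and 38.4, 59.4, 45.4, 56.3 and 64.7 CPM at stage 6. It was lower in 5 of 5 females without overlap between the stages, but with uneven changes it did not pass the test (-0.67 ± 0.16, adjusted p = 0.0282). Pt-ptc, the receptor and a target of the pathway, was at 491 ± 54 and 540 ± 59.2 CPM (SD, n = 5; 0.14 ± 0.10, adjusted p = 0.486). Pt-smo, the signal transducer, was lower in 5 of 5 females (-0.35 ± 0.09, adjusted p = 0.0354), as was Pt-ci, the transcription factor (-0.33 ± 0.10, adjusted p = 0.0953), and neither passed.

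Pt-gas1 was the only called gene of the 5 core Hedgehog genes and of the Hedgehog pathway list. In vertebrates GAS1 is a membrane protein that binds Hedgehog. It measured 82.5, 81.8, 83.5, 60.3 and 29 CPM at stage 5 and 134, 122, 113, 94.3 and 54 CPM at stage 6. The groups overlapped through the low level of Pt-msx1 3, and all females rose (0.65 ± 0.09, adjusted p = 0.00173). The call was lost without gfp 4, Pt-msx1 2 or Pt-msx1 3 (adjusted p up to 0.017). The list had 0 to 2 calls when 1 female was left out. Its median log2 change was -0.341, and 10 of 12 models were negative.

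Genes expressed at the centre of the germ disc, which lies at the future posterior, showed 3 higher and 0 lower of 7 (median log2 change 0.489). Over all models 1.45% were higher. Pt-msx1, the homeobox gene that the study knocks down, measured 122, 140, 93.8, 127 and 78.1 CPM at stage 5 and 169, 181, 144, 158 and 125 CPM at stage 6. It rose in every female, but the lowest stage 6 library (Pt-msx1 3) lay inside the stage 5 range (0.49 ± 0.09, adjusted p = 0.00789). The call stood only without Pt-msx1 1 (adjusted p up to 0.0567 in the other 4 fits). Pt-ed, an immunoglobulin-domain adhesion gene named after Drosophila echinoid, rose from 102 ± 29.4 to 167 ± 32.1 CPM (0.74 ± 0.10, adjusted p = 0.00173; 0.0148 without Pt-msx1 3). An uncharacterized centre gene, aug3.g27670, rose from 19.9 ± 5.83 to 44.2 ± 15 CPM (1.12 ± 0.19, adjusted p = 0.00451). Its call was lost without gfp 4, Pt-msx1 2 or Pt-msx1 3 (adjusted p up to 0.0216).

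The intermediate zone and the rim gave 0 higher models. Of 6 intermediate-zone genes 1 was lower, and of 8 rim genes 1 was lower, with median log2 changes of -0.082 and -0.248. Over all models 0.804% were lower. The lower gene of the intermediate zone was Pt-rhomboid, whose Drosophila homologue is a protease that releases EGF-type ligands. It fell from 44.7 ± 5.40 to 30.3 ± 5.75 CPM (-0.57 ± 0.11, adjusted p = 0.00902), a call that stood only without Pt-msx1 1 (adjusted p up to 0.05 in the other 4 fits). Pt-opa, a Zic-type factor of head stripe splitting, was at 222 ± 17.9 and 224 ± 16.3 CPM (0.01 ± 0.09, adjusted p = 0.951). The lower rim gene was Pt-snail, the homologue of a zinc finger transcriptional repressor that promotes mesoderm formation and epithelial to mesenchymal transition. Pt-snail measured 27, 30.4, 20.7, 34.3 and 37.3 CPM at stage 5 and 15.7, 22.7, 11.8, 18.5 and 17.2 CPM at stage 6. It fell in all 5 females with a slight overlap (-0.80 ± 0.12, adjusted p = 0.00189), and the call was lost without gfp 4, Pt-msx1 2 or Pt-msx1 3 (adjusted p up to 0.0166). These values are of the model of its coding region. The study assigns its untranslated region to a separate model, which is not described here.

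Of 31 Notch pathway models 1 was lower and 0 higher (3.23%, against 2.25% of all models). It was a second delta-like gene, aug3.g12734, which measured 118, 144, 110, 146 and 187 CPM at stage 5 and 61, 76.5, 37.8, 65 and 97.1 CPM at stage 6. This fall was without overlap (-1.10 ± 0.11, adjusted p = 0.000123) and held in all 5 fits, while Pt-Delta above did not pass. Of 60 Wnt pathway models 1 was higher and 1 lower (3.33%, with 0 to 5 called without 1 female), Wnt-5b-like (0.75 ± 0.14, adjusted p = 0.00752) and the receptor gene frizzled-5-like (-0.64 ± 0.10, adjusted p = 0.00216). Wnt-5b-like was lost without gfp 5, Pt-msx1 2 or Pt-msx1 3 (adjusted p up to 0.04) and frizzled-5-like without gfp 4, gfp 5 or Pt-msx1 3 (adjusted p up to 0.0183).

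The BMP and TGF-beta list had 1 higher and 1 lower of 34 models (5.88%), and 24 of 34 were negative. BAMBI, an inhibitory pseudoreceptor in vertebrates, rose from 6.04 ± 2.49 to 10.4 ± 4.63 CPM (0.78 ± 0.14, adjusted p = 0.00789), a call that stood only without Pt-msx1 1 (adjusted p up to 0.0445 in the other 4 fits). In the FGF and EGF list, with 1 higher and 2 lower of 29 (10.3%, against 2.25% of all models), the receptor gene fibroblast growth factor receptor 4 rose without overlap from 63.9 ± 10.2 to 93.8 ± 13.7 CPM (0.56 ± 0.09, adjusted p = 0.00261). Its call was lost without gfp 4, Pt-msx1 2 or Pt-msx1 3 (adjusted p up to 0.0251). The integrin and basement membrane list had 2 higher and 1 lower of 67 (4.48%), with a median log2 change of -0.028. Roundabout homolog 1-like, a receptor of Slit, rose from 3.14 ± 1.00 to 8.89 ± 1.43 CPM (1.51 ± 0.19, adjusted p = 0.000732). SPARC-related modular calcium-binding protein aug3.g5781, a secreted matrix protein, rose from 9.46 ± 1.84 to 23.0 ± 2.40 CPM (1.29 ± 0.13, adjusted p = 0.000124), and both genes rose without overlap with calls that held in all 5 fits. For the lists of this paragraph only called members that rose are described, although each list also held at least 1 that fell.

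The gene models that fell most firmly included several kinesin heavy chains, the motor subunits that carry cargo along microtubules. The model aug3.g5179 had the smallest p of all models tested. It measured 237, 82.0, 427, 149 and 503 CPM at stage 5 and 54.4, 27.4, 121, 45.2 and 135 CPM at stage 6. The females differed up to several-fold at each stage, so the stages overlapped, but every female fell by a similar factor (-1.83 ± 0.10, adjusted p = 5.82e-06). The model aug3.g5180 fell from 49.8, 117, 534, 106 and 248 CPM to 15.7, 63.7, 191, 41.8 and 80.2 CPM (-1.39 ± 0.12, adjusted p = 6.33e-05). The model aug3.g11117 fell from 77.5, 25.0, 69.4, 51.5 and 95.8 CPM to 18.2, 13.9, 20.7, 21.4 and 28.8 CPM (-1.55 ± 0.15, adjusted p = 0.000124). These 3 calls held in all 5 fits.

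Some of the falling models lay next to each other in the assembly. The neighbourhoods named here were picked after their values were seen and carry no test. On scaffold 626, from 5596 to 202863, 4 models in a row fell: aug3.g5177, described as inner centromere protein A-like (-1.06 ± 0.11, adjusted p = 0.000125), the kinesin model aug3.g5178 (-1.23 ± 0.14), aug3.g5179 and aug3.g5180. The next 2 models, both described as bystin-like, were not called (-0.52 and -0.16). On scaffold 1264 the kinesin model aug3.g11117 (1 to 35575) lay beside aug3.g11118 (-1.40, adjusted p = 0.0195) and the uncharacterized model aug3.g11119 (102936 to 111780). The last fell from 3.73, 2.46, 14.9, 3.96 and 15.6 CPM to 0.347, 0.609, 2.78, 0.633 and 3.82 CPM (-2.38 ± 0.21, adjusted p = 7.3e-05). On scaffold 590 a kinesin model (-1.67), a golgin subfamily A member 4-like model (-1.05 ± 0.11, adjusted p = 0.000152) and an uncharacterized model (-1.19, adjusted p = 0.0162) followed each other.

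Over the series of models, 12 adjacent pairs were both lower (22 models), 7 pairs both higher (13 models) and 1 pair opposite, among 9199 adjacent pairs of tested models. Of the lower pairs 1, and of the higher pairs 2, carry a shared locus identifier and may be pieces of a single gene. The kinesin heavy chain models number 12, of which 10 were tested, 5 were lower and 0 higher, with a median log2 change of -1.05. Over all models 0.804% were lower. The model aug3.g638, described like aug3.g5180 as kinesin heavy chain, was at 214 CPM at stage 5 and 227 CPM at stage 6 on average (0.09) and was not called. Among models of any kinesin 5 of 37 were lower. How reads divide between near-identical copies is uncertain.

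Of the 7 adjacent higher pairs, 2 held a homeobox gene, on scaffolds 344 and 379. On scaffold 48, which had no such pair, aug3.g15599 (593893 to 633970) rose by 2.42 ± 0.18 (adjusted p = 4.88e-05), the undescribed model aug3.g15603 by 3.65 ± 0.39 and Pt-Scr-A (1228865 to 1240808) by 2.78, with uncalled models between them (aug3.g15602 at -0.83 and aug3.g15605 at 1.08), and the Hox-B4-like model aug3.g15608 at 1370643 to 1418916 did not pass (-0.34 ± 0.12, adjusted p = 0.126). On scaffold 344, the Hox-B4a-like model (98758 to 111174, minus strand) rose by 0.83 and the uncharacterized model aug3.g1790 by 2.72 ± 0.33. On scaffold 379, 2 of 14 tested models were called, EMX1-like (2.67 ± 0.39, adjusted p = 0.00211) and EMX2-like (2.01 ± 0.34, adjusted p = 0.00442), homologues of Drosophila empty spiracles with a role in head patterning. EMX1-like was lost without gfp 4 or gfp 5 (adjusted p up to 0.0198) and EMX2-like without gfp 4, gfp 5 or Pt-msx1 3 (adjusted p up to 0.0361).

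**Figure D2:**
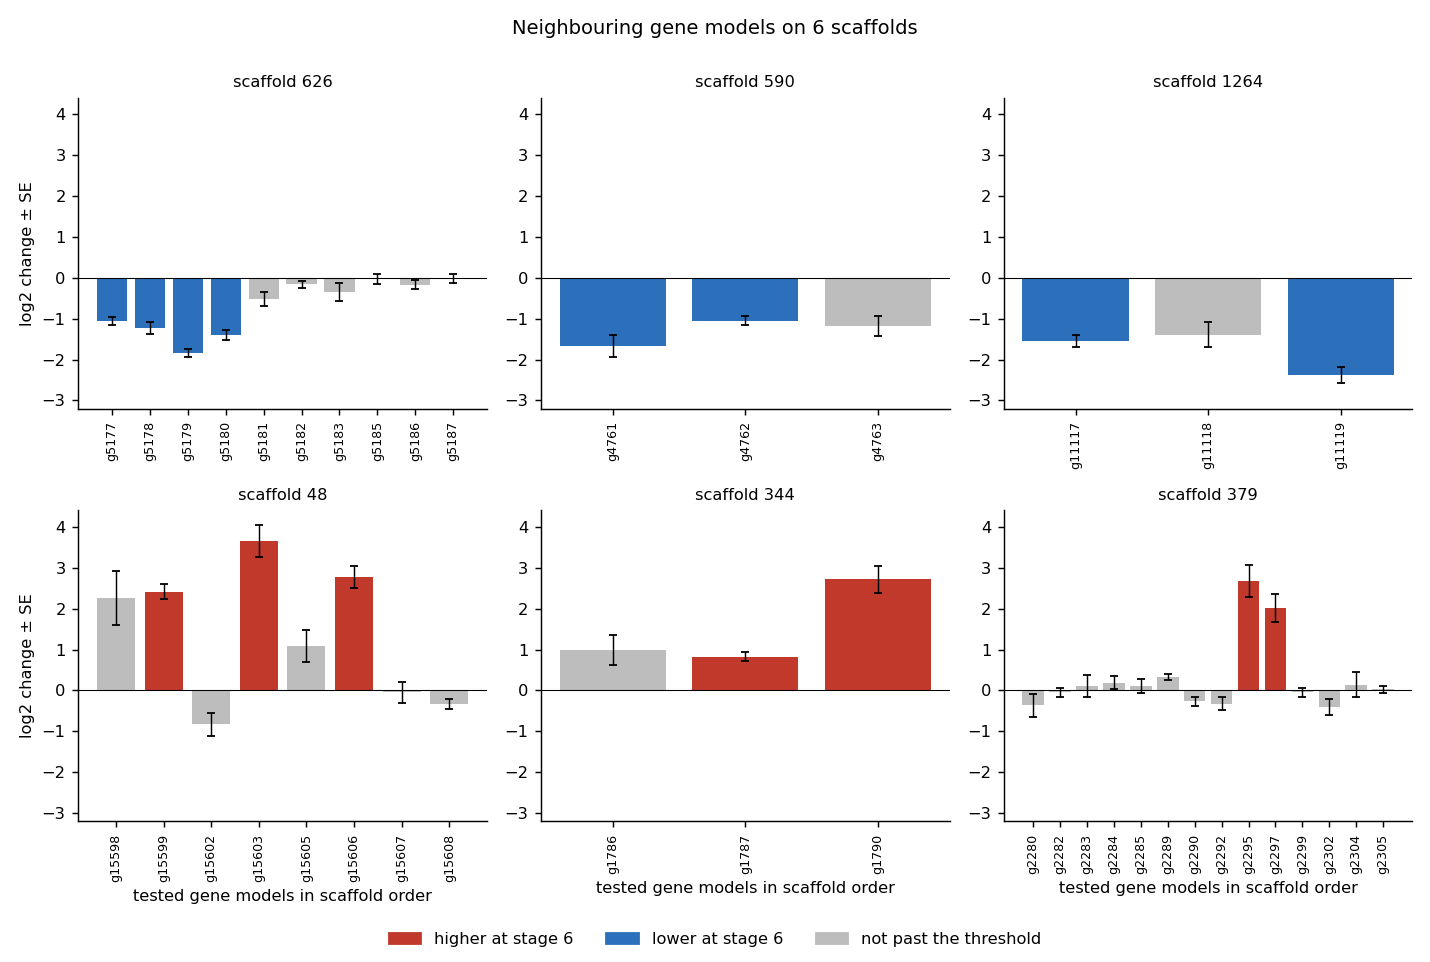
Log2 change from stage 5 to stage 6 with its standard error for the tested gene models of 6 scaffolds, in their order along each scaffold (equal spacing, not to scale), with called models coloured. The 4 lower models of scaffold 626 stand together next to uncalled bystin-like models, and on scaffold 379 the EMX1-like and EMX2-like models rise among uncalled neighbours.

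Further regulators and enzymes fell. SPDEF-like, an Ets factor gene (aug3.g4238), measured 34.3, 22.8, 112, 30.6 and 41.8 CPM at stage 5 and 13.4, 10, 36.5, 13.8 and 25.6 CPM at stage 6. Pt-msx1 1 was highest at both stages, the ranges overlapped, and all females fell (-1.21 ± 0.13, adjusted p = 0.000194, held in all 5 fits). A RING-type ubiquitin ligase model described as RHC1A-like fell from 28.5, 13.8, 147, 30.1 and 131 CPM to 9.88, 5.83, 21.5, 14.1 and 39.3 CPM (-1.72 ± 0.20, adjusted p = 0.000428, held in all 5 fits). The uncharacterized model aug3.g18851, with 722 ± 123 CPM and then 359 ± 49.4 CPM, fell without overlap (-1.0 ± 0.10, adjusted p = 0.000172, held in all 5 fits). The appendage gene family member DLX-6-like fell from 112 ± 25.3 to 70.5 ± 12.2 CPM (-0.66 ± 0.10, adjusted p = 0.003), but not without gfp 4, gfp 5 or Pt-msx1 3 (adjusted p up to 0.0266).

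Heat shock proteins and chaperones gave 5 higher and 0 lower of 98 models tested (5.1%, against 1.45% of all models higher), and between 1 (without Pt-msx1 2) and 10 (without Pt-msx1 1) when a female was left out. The Hsp90 homologue heat shock protein 83 measured 2877, 696, 1962, 1442 and 1904 CPM at stage 5 and 4458, 2998, 4601, 4629 and 3402 CPM at stage 6. The groups did not overlap, with gfp 5 lowest at both stages (1.3 ± 0.20, adjusted p = 0.00237), and the call was lost without Pt-msx1 2 (adjusted p = 0.0142). Its mean rose from 594 to 1379 RPKM. Among Hsp70 models 3 of 12 were higher, the most abundant of them at stage 6 being major heat shock 70 kDa protein Ab-like, which went from 18, 13.2, 38.5, 17.4 and 31.9 CPM to 36.2, 28, 203, 139 and 68.1 CPM. Females Pt-msx1 1 and 2 rose most (1.74 ± 0.26, adjusted p = 0.00246, held in all 5 fits).

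Of the small heat shock protein genes, 2 of 5 models described as lethal(2)essential for life-like were higher (1.45% of all models were higher). This family was singled out after its values were seen. The model aug3.g1733 measured 22.5, 18.7, 990, 41.7 and 44 CPM at stage 5 and 41.9, 26.3, 3108, 143 and 205 CPM at stage 6. The level in Pt-msx1 1 stood far above that of the other 4 females at both stages, and the change was upward in all (1.44 ± 0.21, adjusted p = 0.0018, lost without Pt-msx1 2 or Pt-msx1 3 with adjusted p up to 0.0119).

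Glycolytic enzymes, chosen after their values were seen, had 3 higher of 16 models tested (1.45% of all models were higher), and 15 of 16 were positive. Glyceraldehyde-3-phosphate dehydrogenase rose from 55.3, 48.1, 68.3, 71.1 and 25.1 CPM to 111, 110.1, 117, 148 and 66.1 CPM (1.08 ± 0.10, adjusted p = 0.000108), and triosephosphate isomerase (0.89) and an aldolase (0.91) also rose. These 3 calls held in all 5 fits. Solute carriers and transporters gave 13 higher and 2 lower of 251 (5.98%, against 2.25% of all models), with 3 to 25 called when 1 female was left out. Of these a sodium-dependent multivitamin transporter model rose from 0.617 ± 0.496 to 2.90 ± 1.80 CPM (2.26 ± 0.28, adjusted p = 0.000585, held in all 5 fits). An acetoacetyl-CoA synthetase, aug3.g3110, which activates acetoacetate for lipid synthesis, rose without overlap from 0.599 ± 0.256 to 4.73 ± 2.02 CPM (2.93 ± 0.25, adjusted p = 5.73e-05, held in all 5 fits). The model aug3.g3110 passed the low-count filter only through stage 6.

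Housekeeping lists stayed at or under the share called over all models (2.25%). None of 84 cytosolic ribosomal protein models, 62 respiratory chain models, 89 translation factors, 106 splicing models or 20 histones was called, and 1 of 112 cell cycle and DNA replication models (0.893%) and 1 of 104 chromatin modifiers (0.962%) were lower. Among these ribosomal models 68 were negative with a median log2 change of -0.105. None of 30 cadherins and catenins and 2 of 99 actomyosin models (2.02%, both lower) were called.

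Among markers of cell types, mesoderm regulators had 1 higher and 1 lower of 7 (28.6%, against 2.25% of all models), the twist-related gene (1.32) and Pt-snail (-0.80). Endoderm and yolk cell regulators had none of 10 called. Germline genes had 1 of 25 higher, argonaute-4-like (1.23 ± 0.23, adjusted p = 0.0096), which stood only without Pt-msx1 1 (adjusted p up to 0.0404 in the other 4 fits). For tissue of the mother or of other animals, adult gland genes had 1 higher of 17 tested (5.88%), and their summed level was 160 to 188 CPM at stage 5 and 159 to 175 CPM at stage 6, with 107 listed models at 0 in all 10 libraries. Haemocyte and hepatopancreas genes had 1 lower of 22 tested (4.55%), with summed levels of 191 to 285 and 177 to 256 CPM and 29 models at 0. Their part in the results was not tested.

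**Figure D3:**
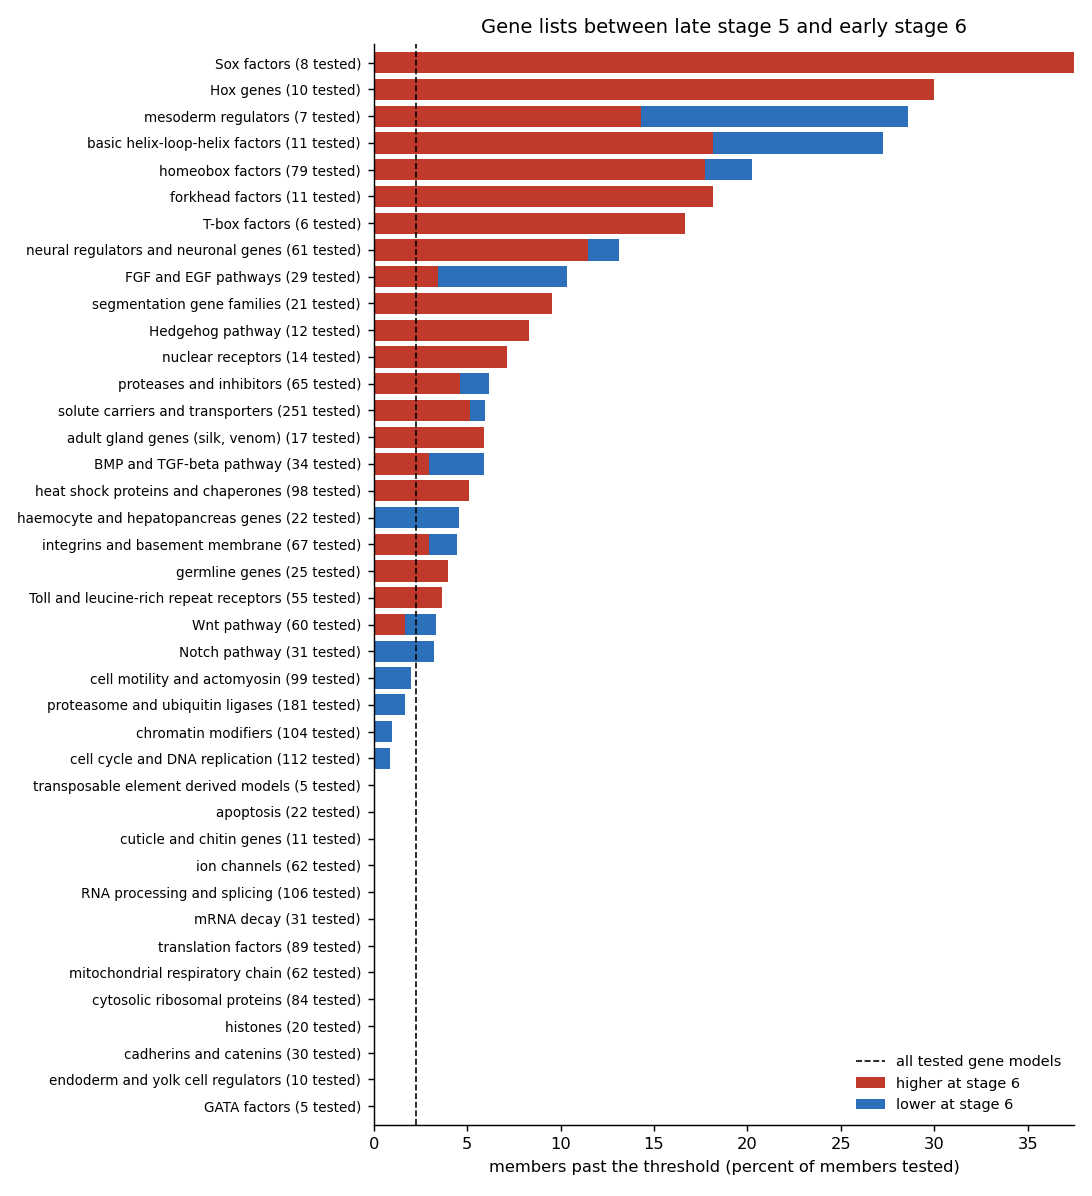
For each of 40 gene lists, the percentage of tested members called at stage 6 as a stacked bar, higher first and lower added to it, with a dashed line at the 2.25% of all models called in either direction. Sox factors, Hox genes, mesoderm regulators, basic helix-loop-helix factors and homeobox genes show 37.5%, 30%, 28.6%, 27.3% and 20.3% of members called in either direction, while ribosomal, respiratory and splicing lists show none.

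The preceding interval, from stage 3 to stage 5, was measured in 8 other untreated females. There 9684 of 14721 models (65.8%) were called, 4697 higher and 4987 lower, against 286 (2.25%) from stage 5 to stage 6 in 5 females. Of the 184 models higher at stage 6, 178 were tested in that interval, and 116 had already been higher at stage 5 than at stage 3 (background 31.9% higher) while 27 had been lower. Pt-prd2 rose by 5.09 on the log2 scale from stage 3 to stage 5 (adjusted p = 7.05e-08), Pt-krü-1 by 4.10 (adjusted p = 5.13e-07), hsp83 (aug3.g876) by 4.66 and aug3.g3860 by 7.95. In contrast, the Pax-6 model aug3.g19881 was lower at stage 5 than at stage 3 (-1.33, adjusted p = 0.00227) before it rose. Prospero (aug3.g15298) had means of 29.8 CPM at stage 3 and 4.77 CPM at stage 5 in those 8 females. On a common scale its stage 3 median was 28.4 CPM, against 7.84 to 22.9 CPM at stage 6 in the 5 females. Of the 102 models lower at stage 6, 101 were tested and 30 had risen and 44 had fallen (background 33.9% lower). The delta-like gene aug3.g12734 had risen by 0.92 (adjusted p = 0.00015) before it fell.

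The stage 5 libraries of those 8 other females differed in level from the 5 described here, on a common scale. For Pt-asl-H they ran from 0.872 to 23.1 CPM with a median of 8.94, and so spanned both the stage 5 range (1.01 to 2.74) and the stage 6 range (10.2 to 14.8) of the 5 females. Pt-Scr-A ran from 0.776 to 17.2 CPM (median 4.88) and Pt-krü-1 from 0.565 to 14.9 CPM (median 7.6). Pt-fd102C stayed at 0 to 0.920 CPM and Pt-pax6-A had a median of 0.340 CPM, both within or below the stage 5 range of the 5 females. Over all higher models, the median of the other females lay above all 5 stage 5 values for 24 of 184 (13%), near the 10.3% of all models. For the 102 lower models, the median of the other females lay below all 5 stage 5 values for 27 (26.5%, against 11.5% of all models) and above them for 5 (4.9%, against 10.3%). The 8 females belong to the gfp, Pt-hh and Pt-ptc groups, and female, group and exact age of the embryos cannot be told apart.

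Later egg sacs of the same gfp females, laid after injection of gfp dsRNA (days 19 and 20), repeated the stage comparison in other libraries. There 122 of 12079 models (1.01%) were called, 67 higher (0.555%) and 55 lower (0.455%). Of the 184 higher models 179 were tested, 177 had the same sign and 46 were called higher. Of the 102 lower models 101 had the same sign and 27 were called lower, and of the models not called in untreated embryos 71.5% had the same sign. Because the stage 6 column of gfp female 5 is the duplicated one, the pair of gfp female 4 was also read alone: 173 of 184 higher (94%) and 97 of 102 lower (95.1%) models kept their sign, against 66.9% of the uncalled models. Pt-asl-H (2.71), Pt-Scr-A (3.36) and Pt-prd2 (1.05) were each called in the gfp pRNAi libraries, and hsp83 was not (0.11, adjusted p = 0.93). A test of the difference between untreated and gfp pRNAi changes called 0 models by edgeR's quasi-likelihood test and 0 by its likelihood ratio test, with 212 at an unadjusted p under 0.05.

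After Pt-msx1 pRNAi, without female 1, 65 of 12074 models (0.538%) were called from stage 5 to stage 6, 54 higher (0.447%) and 11 lower (0.0911%). Of the 184 models that rose in untreated embryos 182 were tested, 179 had the same sign and 31 were called higher. Of the 102 that fell, 100 of 101 had the same sign and 11 were called lower, and 69.4% of the models not called in untreated embryos had the same sign. Values were small for some segmentation genes: 0.13 for Pt-asl-H (adjusted p = 0.964), 0.29 for Pt-Scr-A (adjusted p = 0.898) and 0.35 for Pt-prd2 (adjusted p = 0.361). The study took these genes from those changed by Pt-msx1 pRNAi at stage 6, in an analysis that used these libraries. Their small values were thus partly fixed by the choice, and the contrast with other genes carries no test. Other genes kept large values, such as the Pax-6 model aug3.g19881 (4.78, adjusted p = 0.00249), the twist-related gene aug3.g14287 (1.53, adjusted p = 0.000475), aug3.g3860 (1.70, adjusted p = 0.00213) and the kinesin model aug3.g5179 (-1.22, adjusted p = 0.000614). The test of the difference from the untreated change called 0 models by edgeR's quasi-likelihood test, with 284 at an unadjusted p under 0.05, so with 2 females these differences were not shown for any single gene. The same test of a difference in the untreated stage change between gfp and Pt-msx1 females called 0 models in edgeR, with 225 at an unadjusted p under 0.05.

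**Figure D4:**
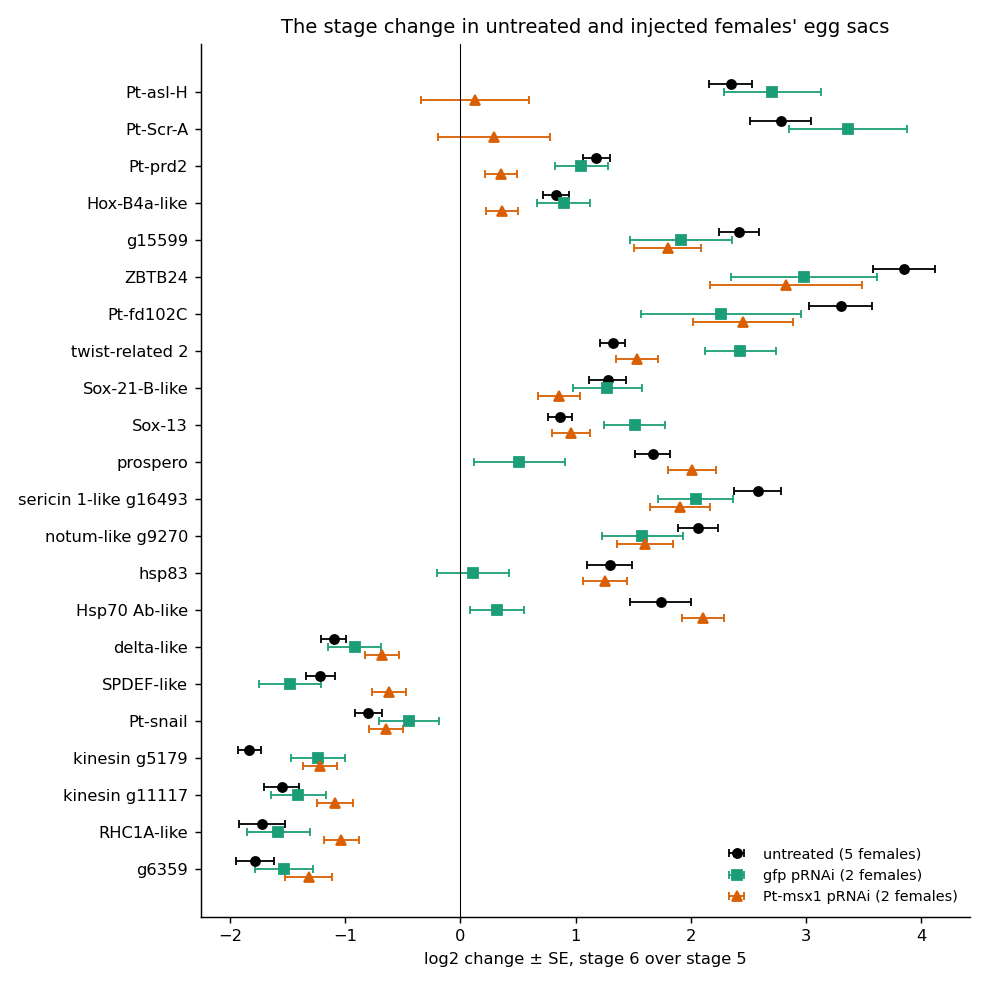
Log2 change from stage 5 to stage 6 with its standard error for 22 genes in untreated embryos (5 females), gfp pRNAi embryos (2 females) and Pt-msx1 pRNAi embryos (2 females, without female 1). Pt-asl-H stands at 2.34, 2.71 and 0.13 and Pt-Scr-A at 2.78, 3.36 and 0.29, while the kinesin model aug3.g5179 lies at -1.83, -1.24 and -1.22. The study took Pt-asl-H and Pt-Scr-A from genes changed by Pt-msx1 pRNAi at stage 6 in these data.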

How the data were processed

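The authors trimmed single-end reads of a stranded library kit, used BLAT to place them on Ptep_1.0, kept well-covered unique alignments of high identity, and counted them on the AUGUSTUS aug3 models with regard to strand (HTSeq 0.5.4p5). The deposited counts are whole reads per model, without normalization. The RPKM values deposited by the authors served only for comparisons between genes. Gene names come from the deposited annotation.

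Tests used R 4.3.3 and edgeR 4.0.16 on the deposited counts: models with at least 1 CPM in 1 library, TMM factors, quasi-likelihood F test, female as block, Benjamini-Hochberg adjustment over all models tested, threshold 0.01. CPM were computed with TMM-scaled library sizes. Standard errors of log2 changes come from the F statistic. Scripts were tested on simulated data. Alternatives used DESeq2 1.42.0, RLE factors, the likelihood ratio test, other filters, no block, a 1.5-fold test and each female left out. Each female gave both libraries from 1 egg sac, and the deviations of its libraries from the stage means correlated at 0.681 to 0.730 across genes, against at most 0.122 with other females.

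Named genes are those that the study pairs with a name or spatial pattern, the 15 smallest p per direction among described models with at least 2-fold and even changes, and up to 4 called members per list and direction. Members and lists were chosen with earlier results of these data known. Stage 7 samples were not analysed here.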

Additional observations from a re-analysis of the deposited data

Results flagged for a closer look

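The values here lay far from the other 4 of their group by Dixon's criterion, which chance meets in about 1 of 20 groups. It was applied to the changes of 113 named genes and to 6 groups of depth values, so about as many as the 6 values found would be met by chance. The log2 change of Pt-osr-B (aug3.g21549), an odd-skipped-related zinc finger gene, was -1.63 in Pt-msx1 female 1 and between -0.192 and 0.043 in the other females. The twist-related gene aug3.g14287 rose by 1.04 in Pt-msx1 female 2 and by 1.37 to 1.41 in the others. The kinase model aug3.g17509 rose by 1.56 in gfp female 5 and by 2.46 to 2.71 in the others. Heat shock protein 70 B2 (aug3.g11686) rose by 2.14 in Pt-msx1 female 2 and by 0.549 to 0.993 in the others. The normalization factor of the stage 5 library of Pt-msx1 female 1 was 0.844, against 1.01 to 1.06, and the total count of the stage 6 library of Pt-msx1 female 3 was 8725236, against 11036780 to 11621286.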

How the results depend on the processing

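The number of called models depended more on the females and the test than on scaling. RLE factors gave 289 (285 of the 286 shared), edgeR's filterByExpr 272, the likelihood ratio test 692 (426 higher, 266 lower), DESeq2 445 (297 higher, 148 lower), no low-count filter 809 (491 higher, 318 lower), a test against a 1.5-fold change 60 (45 higher, 15 lower) and an adjusted p under 0.05 732 (453 higher, 279 lower). Without the replicate block for the female the count was 2 (2 higher, 0 lower), and in the gfp pRNAi egg sacs it was 0 in place of 122. A single fit of all untreated libraries called 44 (30 higher, 14 lower), the gfp females alone 272 and the Pt-msx1 females alone 42 (31 higher, 11 lower). Leaving out 1 female gave 102 to 580 (74 to 409 higher, 28 to 171 lower). All 286 models kept their direction under these alternatives, except that 284 did in the gfp females alone. In Pt-msx1 pRNAi egg sacs, 0 models were called with all 3 females (788 at an unadjusted p under 0.05) and 65 without Pt-msx1 replicate 1, an alternative chosen after seeing the data. Genes that changed sign were all uncalled: with 1 female left out, log2 changes ran from -0.00953 to 0.11 in Pt-noggin-D, -0.25 to 0.11 in Pt-otd, -0.014 to 0.059 in Pt-opa, -0.13 to 0.042 in Pt-frizzled4, -0.11 to 0.16 in Pt-sp6-9, -0.22 to 0.012 in Pt-mirr4 and -0.16 to 0.17 in Pt-ets21c. In the gfp females alone Pt-opa was at -0.080 and Pt-frizzled4 at 0.18. The causes were not tested. Models near 1 CPM rest on about 10 counts per library.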
